A study of Homo sapiens with 4 samples.

Results

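The miRNAs described here are miR-1, miR-133a, miR-133b and miR-206, the group best known from skeletal and heart muscle. They were taken by name as the 4 listed rows hsa-miR-1, hsa-miR-133a, hsa-miR-133b and hsa-miR-206, of 2080 miRNA names listed in any of the 4 deposited files. The group was chosen by its measured values in these files, namely the miR-1 level in HT29, the listed 0 in HCT15, the scarcity of miR-133 and the ratio between cultures. These values are therefore a description and carry no test. Small RNA was sequenced from total RNA of HT29 and HCT15, both established cell lines from human colorectal adenocarcinomas. HT29 spheres and HCT15 spheres, called sphere-derived cancer stem cells by the submitters, were grown in DMEM-F12 tumor sphere medium with N2 Plus Supplement, recombinant bFGF and EGF. HT29 parental cells were grown in DMEM with FBS and HCT15 parental cells in RPMI with FBS. All media held penicillin-streptomycin. The sphere and parental cultures thus differed in basal medium, serum and growth factors at once, and the effects of these cannot be told apart. Each line and culture had 1 library with no replicate, so no difference between cultures has a replicate check.

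A miRNA is a short RNA, cut from a hairpin in a longer transcript, that represses messenger RNAs whose sequence pairs with its seed, bases 2 to 8. miR-1 and miR-133a are made from shared primary transcripts at a pair of loci, and miR-206 and miR-133b lie together at another. In muscle, miR-1 and miR-206 are known to promote differentiation, while miR-133 is known for effects on myoblast proliferation. In colorectal tissue miR-1 and miR-133 are commonly described as lower in tumours than in normal tissue.

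The mature sequences show which members share a seed and could share reads. All 4 names were matched to RefSeq (GRCh38.p14), where miR-1 and miR-133a are listed as miR-1-3p and miR-133a-3p. The sequences are given 5′ to 3′ with the seed in capitals:
miR-1: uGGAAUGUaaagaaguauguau
miR-206: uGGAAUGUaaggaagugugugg
miR-133a: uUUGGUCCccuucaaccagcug
miR-133b: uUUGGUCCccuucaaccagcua
miR-1 and miR-206 have 18 of 22 bases in common. From miR-1 to miR-206, counting from 1 at the 5′ end, the substitutions are A11G, A17G, A21G and U22G. miR-133a and miR-133b differ only by G22A, the last base, so a read trimmed by 1 base fits both. Of 2370 mature names in the RefSeq table, 3 have the seed of miR-1. The one outside the group is miR-613, which is listed at 0 in all 4 libraries. The seed of miR-133a occurs in 2 names, both of them members. How the authors assigned reads that fit several names is not given in the sources used here, so the split between miR-133a and miR-133b is uncertain.

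Mature miR-1 is encoded with the same letters at a pair of loci, so its reads cannot be assigned to either. The RefSeq hairpins are given with the mature miR-1 in capitals:
MIR1-1: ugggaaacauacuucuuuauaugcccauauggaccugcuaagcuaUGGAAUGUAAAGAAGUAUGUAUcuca
MIR1-2: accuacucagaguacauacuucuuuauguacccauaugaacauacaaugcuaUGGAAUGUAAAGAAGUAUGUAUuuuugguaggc
MIR1-1 is at chr20:62554306-62554376 on the plus strand, in an intron of MIR1-1HG in GENCODE 29 (GRCh38), and MIR133A2 lies 10535 bases away in an exon of the same noncoding gene. MIR1-2 is at chr18:21829004-21829088 on the minus strand. It lies in an exon of the noncoding gene MIR133A1HG and, on the opposite strand, in an intron of MIB1, an E3 ubiquitin ligase gene. MIR133A1 lies 3218 bases from MIR1-2 in the same host genes. MIR206 (chromosome 6, 52144349 to 52144434, plus strand) overlaps no other annotated gene. MIR133B lies 4488 bases from MIR206 on the same strand, within an intron of LINCMD1, which this annotation places on the opposite strand. The deposited values rest on hg19, per the submitters' processing notes, and were matched to these positions by name alone.

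Listed miRNA reads came to 12794274 in HT29 spheres and 5806540 in HT29 parental cells. The HCT15 values were deposited as RPKM, although their sums, 612602 in spheres and 516401 in parental cells, are low for values divided by the length of mature miRNAs, and the length used is not given in the sources used here. Steps between low values corresponded to about 2325418 reads in HCT15 spheres and 3189984 in HCT15 parental cells. Levels are given in CPM, counts per 1e6 listed miRNA reads in the library. A limit of 3 reads was set for a count of 0, whose 95% interval ends higher, at 3.69 reads. That limit is 0.234 CPM in HT29 spheres, 0.517 in HT29 parental cells, 1.29 in HCT15 spheres and 0.940 in HCT15 parental cells. Intervals are exact 95% intervals, and they and these limits cover counting error only, since reads carry no molecular identifiers. The 15 listed names of the colon epithelium list summed to 239534 CPM in HT29 spheres and 176737 in HT29 parental cells. In HCT15 they summed to 24378 CPM in spheres and 26265 in parental cells. The members differed between the lines. miR-192-5p led in HT29 (157860 CPM in spheres, 92120 in parental cells) and was at 3029 and 2582 in HCT15. miR-194-5p was at 15240 and 20136 CPM in HT29 spheres and parental cells, against 77.4 and 81.5 in HCT15. miR-375 led in HCT15 (7538 and 10451 CPM) and was at 2424 and 896 in HT29.

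miR-1 was the one abundant member, and it was listed above 0 in HT29 alone. It had 14785 reads in HT29 spheres, or 1156 CPM (1137 to 1174), and 957 reads in HT29 parental cells, or 165 CPM (155 to 176). It was listed at 0 in HCT15 spheres and in HCT15 parental cells. The sphere level was 7.01-fold the parental level in CPM (interval 6.57 to 7.49). After TMM scaling, which takes most miRNAs as unchanged between the libraries, the log2 ratio was 3.60 (interval 3.51 to 3.70), or 12.1-fold. It was 2.81 with total reads and 3.25 when the 10 most abundant miRNAs were left out of the totals. Scaled to the parental library's total, the sphere library would hold 6710 miR-1 reads, against 957 in the parental library. In bulk RNA, fewer cells that express a miRNA and less of it per cell cannot be told apart.

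**Figure D1:**
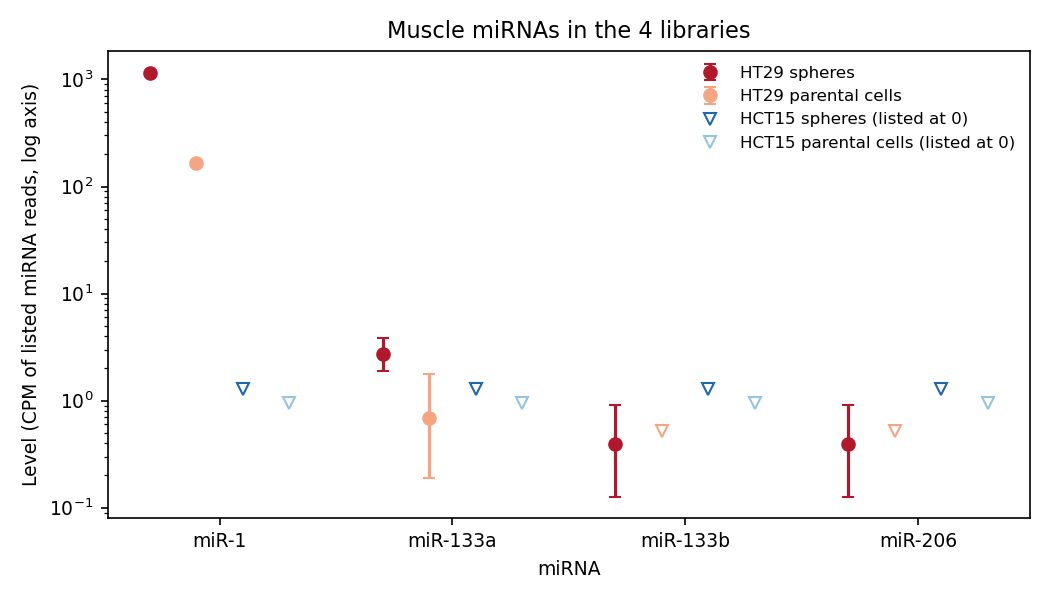
Level of each muscle miRNA in CPM on a log axis, in HT29 spheres, HT29 parental cells, HCT15 spheres and HCT15 parental cells; points are single libraries with exact 95% counting intervals, and open triangles mark a listed 0, drawn at the level that 3 reads would have. miR-1 stands at 1156 and 165 CPM in HT29 spheres and parental cells, and every other point lies below 3 CPM.

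In HT29 spheres miR-1 ranked 76th of 1921 names by reads, and in HT29 parental cells 169th. It made up 0.116% of sphere reads and 0.0165% of parental reads. Just above it in spheres were miR-151a-5p with 14794 reads and let-7i-5p with 14803, both within the counting interval of miR-1 (14548 to 15025). Just below it were miR-1307-5p with 14151 and miR-146b-5p with 13904, both under that interval. In parental cells the neighbours were miR-3613-5p (977 reads) and miR-4454 (995) above, and miR-7-1-3p (954) and miR-126-5p (931) below, all within the interval of miR-1 (897 to 1020). The names next to miR-1 in one culture stood apart from it in the other. miR-151a-5p, next to miR-1 in spheres, was at 1156 CPM in HT29 spheres and 2597 in HT29 parental cells. miR-7-1-3p, next to miR-1 in parental cells, was at 32.4 CPM in HT29 spheres and 164 in HT29 parental cells.

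Of the 4 members, 1 passed a minimum mean of 10 CPM over the HT29 libraries, as did 361 of all 1921 names listed there. That member, miR-1, was at least 2-fold higher in spheres. Over all 361 names at that minimum, 64 (17.7%) passed 2-fold upward and 51 (14.1%) passed 2-fold downward in HT29 spheres, with a median log2 ratio of 0.15. This split followed the scaling: 16 were higher and 127 lower with total reads (median -0.64), 38 and 81 without the 10 most abundant miRNAs, and 46 and 66 with TMM over all 4 libraries. Relative to TMM, total reads moved the scaling of HT29 by -0.79 on the log2 scale, and the ratios of scarce names by less because of the prior count. The miR-1 ratio stayed above 2-fold under each scaling, from 2.81 to 3.60 on the log2 scale. It ranked 4th of 361 by ratio, and 3rd of the 226 names averaging 50 CPM or more. Among those 226, miR-1290 (4.14, interval 3.89 to 4.44) and miR-1246 (4.20, 4.11 to 4.29) lay above it, and miR-146a-5p (2.99, 2.93 to 3.04) and miR-210 (2.81, 2.71 to 2.92) next below. None of these intervals overlaps that of miR-1.

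**Figure D2:**
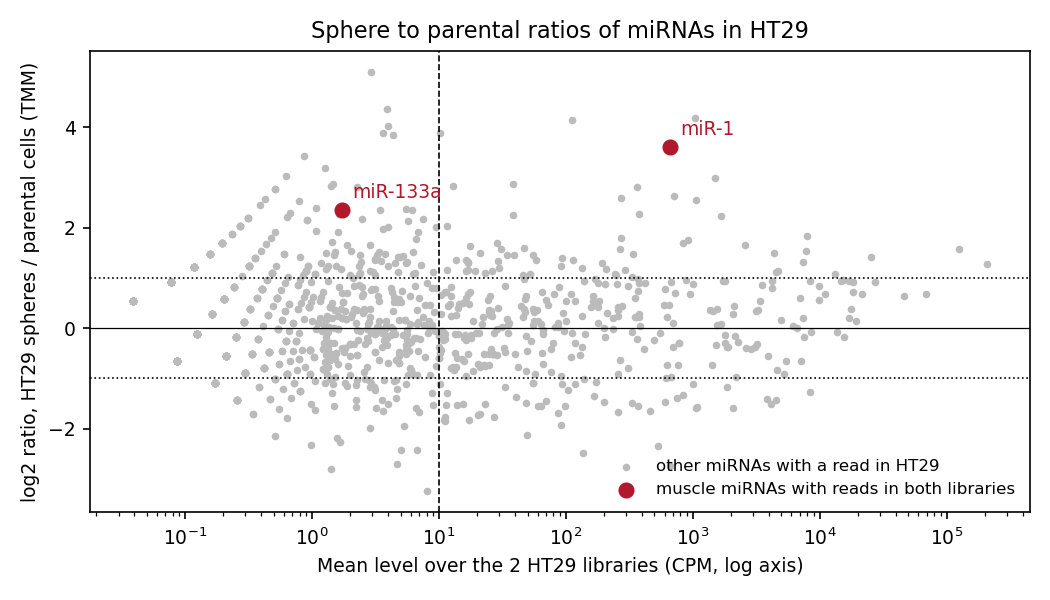
Log2 ratio of HT29 spheres over HT29 parental cells after TMM scaling with a prior count of 2, against the mean level over both libraries in CPM on a log axis; each point is 1 miRNA with a read in HT29, the dotted lines mark 2-fold and the dashed line 10 CPM. miR-1 (3.60) lies near the upper edge of the abundant miRNAs, and miR-133a (2.35) lies among scarce miRNAs, left of the 10 CPM line.

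miR-133a, the partner of miR-1 on both of its transcripts, was scarce. It had 35 reads in HT29 spheres, or 2.74 CPM (1.91 to 3.80), and 4 reads in HT29 parental cells, or 0.689 CPM (0.188 to 1.76). The log2 ratio was 2.35 with the prior count, and its interval, computed without a prior count, was 1.30 to 4.74. That interval includes the miR-1 ratio. At these counts it was therefore not detectable whether the ratios of the partners differed. miR-1 reads outnumbered miR-133a reads 422 to 1 in HT29 spheres (interval 304 to 607) and 239 to 1 in HT29 parental cells (93.1 to 880). These intervals overlap. Reads of different miRNAs are also captured with different efficiency during ligation, so a ratio within a library is not a ratio of molecules. Adding the miR-133b reads to those of miR-133a gave 370 to 1 in spheres and left the parental ratio at 239 to 1.

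**Figure D3:**
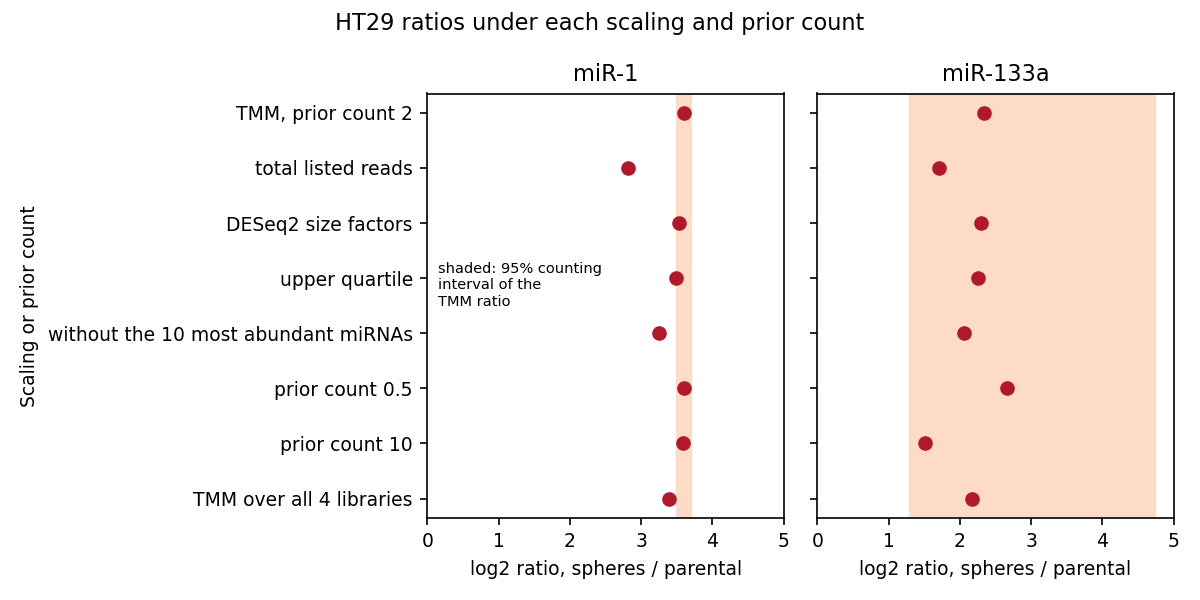
Log2 ratio of HT29 spheres over HT29 parental cells for miR-1 (left) and miR-133a (right) under each scaling and prior count. Points are the ratios, and the shaded band is the 95% counting interval of the TMM ratio, computed without a prior count. miR-1 ranges from 2.81 to 3.60, with 4 settings outside its narrow band, whereas all settings of miR-133a lie inside its wide band.

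miR-206, found mainly in skeletal muscle and sharing the seed of miR-1, had 5 reads in HT29 spheres (0.391 CPM) and 0 in HT29 parental cells. miR-133b, its neighbour on chromosome 6, likewise had 5 reads in HT29 spheres and 0 in HT29 parental cells. Scaled by total reads to the parental library, 5 sphere reads correspond to 2.27 reads, which is under the limit of 3 set for a count of 0. TMM scaling would put this value higher, but the counting interval of 5 reads is wide, 1.62 to 11.7 reads. A difference between the HT29 cultures was thus not detectable at this depth, and no fold is given. The 3 members other than miR-1 held 45 of 14830 reads of the group in HT29 spheres and 4 of 961 in HT29 parental cells. miR-1 made up 99.7% and 99.6% of the group's reads in these libraries.

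In HCT15 none of the 4 members was above 0 in either culture, where 28.3% of all listed names were above 0 in spheres and 47.8% in parental cells, so no ratio of HCT15 spheres over HCT15 parental cells exists for any of them. In that line, of 332 names averaging 10 CPM or more, 31 (9.34%) passed 2-fold upward in spheres and 18 (5.42%) downward. Because HT29 was deposited as raw counts and HCT15 as RPKM, the lines were set side by side without a test. At the HT29 levels of miR-1, the HCT15 libraries would have held about 2687 reads in spheres and 526 in parental cells. Against the limit of 3 reads per library, the lowest fold of miR-1 in HT29 spheres over HCT15 spheres was 896. For HT29 parental cells over HCT15 parental cells the value was 175-fold. These bounds take the HT29 levels without their intervals. The files of the lines also differ in unit and in names listed (1921 in HT29, 2041 in HCT15). A difference in how reads were assigned cannot be told apart from a difference between the lines. With the commonest HCT15 sphere value read as 1 read instead of 2, the first of these bounds was 448-fold. For miR-133a the HT29 levels would have given 6.36 reads in HCT15 spheres and 2.20 in HCT15 parental cells. At so few reads on an approximate scale, no bound is given for miR-133a. For miR-206 and miR-133b the HT29 sphere level would have given 0.909 reads in HCT15 spheres, so whether the lines differ in these was not detectable either.

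miR-1 was set beside other miRNAs found in HT29 and scarce in HCT15. Of 351 names in all 4 files that averaged 10 CPM or more in HT29, 30, miR-1 included, had at most about 3 reads in both HCT15 libraries, and 13 of these were listed at 0 in both. Among the 30, miR-1 was the most abundant in HT29 spheres and by its mean over the HT29 libraries, and the fifth most abundant in HT29 parental cells. It also had the highest ratio of HT29 spheres over HT29 parental cells. With TMM, at least 2-fold higher in HT29 spheres were 4 of the 30, and at least 2-fold lower were 7. Over all 361 HT29 names at that minimum the shares were 17.7% and 14.1%, a split that followed the scaling. Likeness was measured as the difference in HT29 log2 ratio, over the 2 HT29 libraries. The nearest name was miR-184, at 22.5 CPM in HT29 spheres and 12.4 in HT29 parental cells, with a log2 ratio of 1.63, which is -1.97 from that of miR-1. It was followed by miR-552 (1.36), miR-3131 (1.07), miR-105-5p (0.83) and miR-452-3p (0.72). None of the other names among the 30 had a HT29 ratio close to that of miR-1. Because miR-1 was chosen for its level and ratio, its places among the 30 restate that choice.

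Other miRNAs of striated muscle did not share the level of miR-1. In HT29, 0 of 6 such names had a mean of 10 CPM, against 361 of all 1921 listed names. miR-208a and miR-208b, which lie in introns of heart myosin genes, were listed at 0 in all 4 libraries. miR-499a-5p, from an intron of the myosin gene MYH7B, had 34 reads in HT29 spheres (2.66 CPM) and 24 in HT29 parental cells (4.13 CPM). Its log2 ratio of 0.14 had an interval of -0.64 to 0.97 and ranged from -0.60 to 0.14 over the scalings. In HCT15 it was at 0.520 RPKM in spheres and 0.319 in parental cells, about 2 reads in each. miR-499a-3p had 8 reads in HT29 spheres and 3 in HT29 parental cells, and was listed at 0 in both HCT15 libraries. miR-486-5p, which is abundant in muscle and also in red blood cells, had 32 reads in HT29 spheres (2.50 CPM) and 19 in HT29 parental cells (3.27 CPM), with a log2 ratio of 0.37 (interval -0.46 to 1.31; -0.36 to 0.37 over the scalings). In HCT15 it was the most abundant of the 6, at 34.8 CPM in HCT15 spheres and 42.9 in HCT15 parental cells. Its HCT15 log2 ratio was 0.05 (interval -0.36 to 0.46). miR-486-3p was listed at 0 in both HT29 libraries and at 0.289 RPKM in HCT15 spheres and 0.710 RPKM in HCT15 parental cells.

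Summed over 8 listed names of striated muscle (the members with miR-208a, miR-208b and both arms of miR-499a), the level was 1162 CPM in HT29 spheres and 170 in HT29 parental cells. Without miR-1 these sums were 6.80 and 5.34 CPM. Of the 8 names, 2 were at 0 in HT29 spheres, 4 in HT29 parental cells and 7 in each HCT15 library. Of all listed names, 43.3% were at 0 in HT29 spheres, 47.7% in HT29 parental cells, 71.7% in HCT15 spheres and 52.2% in HCT15 parental cells. The list of smooth muscle and stroma, with miR-143 and miR-145, summed to 7.43 CPM in HT29 spheres and 7.58 in HT29 parental cells. Its highest name in HT29, miR-143-3p, was at 6.10 CPM in HT29 spheres and 3.79 in HT29 parental cells. The other names of that list with HT29 reads had at most 16 reads in either library, so no direction is given. miR-199a-3p was at 1.25 and 2.76 CPM in HT29 spheres and parental cells, from 16 reads in each. miR-199a-5p was at 0.0782 and 0.861 CPM (1 and 5 reads), and miR-145-5p at 0 and 0.172 (0 and 1 read). Blood-cell miRNAs summed to 484 and 481 CPM in HT29 spheres and parental cells, of which miR-142-3p made up 367 and 381. The endothelial miR-126 arms summed to 256 CPM in HT29 spheres and 293 in HT29 parental cells, and the neural list to 20.9 and 42.7. Liver miR-122 and the pancreatic list stayed below 1 CPM in both. In HCT15 spheres and HCT15 parental cells the sums were 15.2 and 20.7 CPM for smooth muscle and stroma, 27.6 and 17.1 for blood cells, 121 and 127 for endothelium, and 18.7 and 26.8 for neural tissue. The part of other cells in the miR-1 level was not tested. With both miR-486 arms added, the striated muscle names other than miR-1 summed to 9.30 CPM in HT29 spheres and 8.61 in HT29 parental cells, and to 36.2 in HCT15 spheres and 44.9 in HCT15 parental cells.

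**Figure D4:**
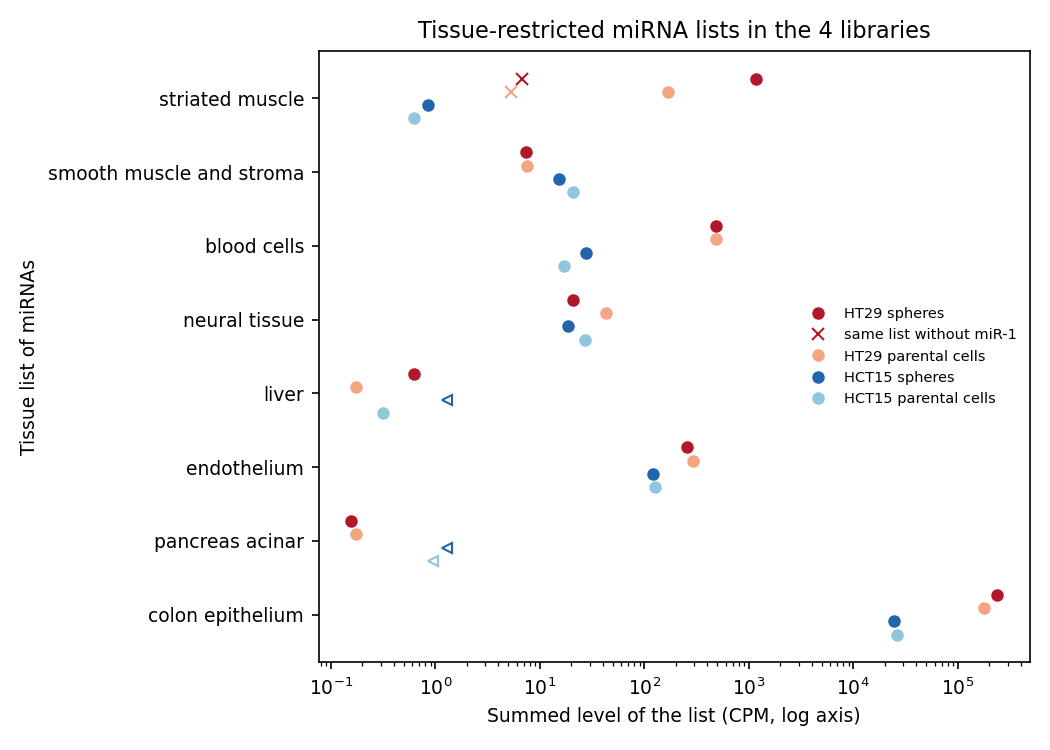
Summed level in CPM on a log axis of each list of tissue-restricted miRNAs in HT29 spheres, HT29 parental cells, HCT15 spheres and HCT15 parental cells; dots are single libraries, crosses the striated muscle list without miR-1, and open triangles a sum of 0, drawn at the level of 3 reads. The striated muscle sums in HT29 (1162 and 170 CPM in spheres and parental cells) drop to 6.80 and 5.34 CPM without miR-1.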

How the data were processed

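Per the labels' protocols, total RNA went into TruSeq Small RNA libraries. The HT29 files hold raw read counts per mature miRNA, deposited by the authors without normalization. The HCT15 files hold RPKM values computed by the authors, per the file headers. Both name miRBase release 19. The submitters' processing notes name hg19. For the aligner, read trimming and shared reads, the method is not given in the sources used here.

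The HCT15 RPKM sums were 612602 in spheres and 516401 in parental cells. One read was taken as 0.263 RPKM in spheres, where the commonest value, 0.527, was read as 2 reads, and as 0.162 RPKM in parental cells. Within 0.02 reads, 37.4% of 254 and 46.1% of 581 low values were then whole, so HCT15 read numbers are approximate. Read as 1 read, the commonest sphere value left 28.3% of the same 254 whole and gave 1162709 reads.

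Log2 ratios used edgeR 4.0.16 TMM factors over a line's own libraries (R 4.3.3) and a prior count of 2, with exact conditional binomial intervals in Python 3.11.15 (numpy 2.4.6, pandas 2.3.3, scipy 1.17.1). The intervals leave out the prior count. The ratio and interval code was checked on simulated counts with counting error alone and known fold changes. That check does not bear on which scaling suits the HT29 libraries. No test was made, with 1 library per group. Alternatives were total reads, DESeq2 1.42.0 size factors, the upper quartile, leaving out the 10 most abundant miRNAs, other prior counts and other minimum levels. TMM over all 4 libraries and the 1-read setting were added after seeing the data. The members and the lists were chosen with earlier results of these data known. The names given as neighbours are the 2 above and 2 below miR-1 by reads or by ratio, and the names most like it are the 5 nearest in HT29 ratio among those with at most 3 reads, after rounding, in each HCT15 library. Positions are from GENCODE 29 and sequences from RefSeq.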

Additional observations from a re-analysis of the deposited data

How the results depend on the processing

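The miR-1 log2 ratio of HT29 spheres over parental cells was 3.60 with TMM. It was 2.81 with total reads, 3.48 with the upper quartile, 3.25 without the 10 most abundant miRNAs and 3.39 with TMM over all 4 libraries, each outside its counting interval. DESeq2 size factors and prior counts of 0.5 and 10 left it within that interval, and all 7 alternatives left the miR-133a ratio within its own. The number of miRNAs at least 2-fold higher in HT29 spheres was 64. It was 16 with total reads, 38 without the 10 most abundant miRNAs, 39 at a minimum mean of 50 CPM and 215 with no minimum. In HCT15 the number was 31, against 19 with total reads and 9 at 50 CPM. Without the 10 most abundant miRNAs in the total, miR-1 was at 3228 CPM in HT29 spheres and 340 in HT29 parental cells. Its rank by reads among names in all 4 files was 75 in HT29 spheres and 165 in HT29 parental cells. For miR-133b and miR-206 no ratio is given, since HT29 parental cells had 0 reads. Against the limit of 3 reads, the lowest fold of miR-1 in HT29 spheres over HCT15 spheres was 896. It was 448 with the commonest HCT15 sphere value read as 1 read. No paired analysis was possible because no value here comes from a test and the labels number no replicates. Depth limits statements on miR-133a, miR-133b and miR-206, in HCT15 above all.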
